A study of Mus musculus with 51 samples.

Results

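The comparison set here is the 20 floxed control mice of batch 2, out of 51 libraries in the series, taken by their genotype labels, with every knockout left out. They carried loxP-flanked alleles and were labelled as controls. All were on high-fat diet, and each library was 1 animal's gastrocnemius muscle, the large mixed muscle of the calf. There were 8 Bmal1fx/fx animals (numbered 8 to 15), 6 Vhlfx/fx animals (1 to 6) and 6 Bmal1fx/fx;Vhlfx/fx animals (1 to 6), called below the Bmal1fx, the Vhlfx and the double-floxed controls. The series compares muscle knockouts of these genes with such controls. The sources used here do not name the Cre driver of the knockouts, the place of the loxP sites, the strain background, the sex, the age, the weeks on diet or the time of day at harvest.

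A floxed allele carries loxP sites around an exon and is meant to work as a normal allele until Cre recombinase removes the part between them. Floxed lines kept as separate colonies can differ in the allele itself, in the chromosome segment that travels with it and in other variants the colonies carry. BMAL1, encoded by Arntl, is the activator at the head of the circadian clock, and VHL is the ubiquitin ligase subunit that marks the hypoxia-inducible factors (HIF) for breakdown. The question asked here is how far muscle of the 3 control lines differed with neither gene removed.

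The libraries were QuantSeq 3′ tag libraries, which read the end of each transcript. Depth ran from 9.91 to 12.8 M counts in the Bmal1fx controls, from 9.51 to 12.1 M in the Vhlfx controls and from 9.35 to 14.7 M in the double-floxed controls. All 10 myofibre markers on the list, among them Acta1, Ckm and Ttn, were measured, and their summed level was 121000 to 154900 CPM (the usual per-library scaling of counts, with TMM library sizes). In all 20 libraries Xist had 0 to 3 counts and the Y-linked Ddx3y 620 to 1446. Log2 CPM correlated at 0.974 to 0.985 between animals of a line, and none of the 58 pairs of libraries within a line was a duplicate. Pairs across lines were not checked. On the first principal component, which held 11.8% of the variance, the double-floxed controls lay between 11.0 and 18.1, the Vhlfx controls between -16.6 and -8.94 and the Bmal1fx controls between -9.81 and 11.2. The double-floxed and Vhlfx animals thus lay at opposite ends of this component with the Bmal1fx animals between them. The Bmal1fx range reached into that of each other line. On the second component, with 9.58% of the variance, Vhlfx animal 6 lay at 18.4 and the other Vhlfx animals at -16.5 to -5.83.

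Of 11943 genes tested with edgeR's quasi-likelihood test, 714 (5.98%) differed among the 3 lines in the joint test at a Benjamini-Hochberg adjusted p under 0.05, the rule used for every call below. The double-floxed and Vhlfx controls were the most unlike pair, with 934 genes called (7.82%), 350 higher (2.93%) and 584 lower (4.89%) in the double-floxed animals. With no filter on low counts that split turned to 871 higher and 680 lower. Between the double-floxed and the Bmal1fx controls 199 genes were called (1.67%), 103 higher (0.862%) and 96 lower (0.804%). Between the Vhlfx and the Bmal1fx controls 112 were called (0.938%), 94 higher (0.787%) and 18 lower (0.151%) in the Vhlfx animals. Changes were small. The median absolute log2 fold change of the called genes was 0.38 in the first of these pairs, 0.36 in the second and 0.47 in the third, and 65, 19 and 12 genes passed 2-fold. The median log2 fold change of all genes lay between -0.0010 and 0.0055. Among the 714 genes of the joint test the Vhlfx mean was the highest in 415 (58.1%, against 35.8% of all tested genes) and the double-floxed mean was the lowest in 416 (58.3%, against 37.0%). The 3 pairs share libraries and are not independent of each other. Without scaling between libraries the median of all genes moved to -0.15, 0.043 and 0.199 in Vhlfx against Bmal1fx, double-floxed against Bmal1fx and double-floxed against Vhlfx, and the changes below are relative to the scaled median. The count between the Vhlfx and Bmal1fx controls fell to between 61 and 66 without Vhlfx animal 1 (61), 3 (66) or 4 (63) or Bmal1fx animal 11 (63). The count between the double-floxed and Bmal1fx controls fell to 81 without double-floxed animal 6, to 109 without animal 3 and to 120 without animal 2. It fell to 108, 97, 125 and 109 without Bmal1fx animals 8, 9, 14 and 15.

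Arntl itself was lower in the muscle of the Bmal1fx controls than in that of the other lines. It ran from 8.01 to 12.2 CPM (median 10.5) in the Bmal1fx controls, from 12.3 to 15.9 (median 13.6) in the Vhlfx controls and from 13.0 to 16.7 (median 15.1) in the double-floxed controls, which also carry the floxed Bmal1 allele. Every Bmal1fx animal lay below every animal of the other lines, and those lines overlapped. The double-floxed mean was 1.48-fold that of the Bmal1fx controls (log2 fold change 0.56 ± 0.10 SE, adjusted p = 0.000776), and the Vhlfx mean was 1.36-fold (0.44 ± 0.10, adjusted p = 0.015). The second call was lost without Vhlfx animal 1 (adjusted p = 0.0698) or 4 (0.053), and without scaling between libraries, where the log2 fold change was 0.29 (adjusted p = 0.0611). Between the lines that share the floxed Vhl allele the difference was 0.12 ± 0.10 (adjusted p = 0.56). Arntl lies at chr7:113207465-113314126 (GRCm38, plus strand). Vhl, at chr6:113623959-113631633, was sparse in all lines, at 2.31 to 5.70 CPM in the Bmal1fx, 1.58 to 4.77 in the Vhlfx and 3.264 to 5.24 in the double-floxed controls. The 3 ranges overlapped and no pair was called (adjusted p 0.205 to 0.707).

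A RefSeq promoter window of Arntl is shown because the Arntl transcript separated the lines. The window also holds the element through which the clock feeds back on Arntl. ROR activators and the repressors REV-ERBα and REV-ERBβ (Nr1d1 and Nr1d2) compete for that element. The window is chr7:113207261-113207560 (GRCm38.p6, plus strand), and the capitals mark the letters AAGTAGGT, sought on both strands. These letters stand in it at 2 places on the plus strand and in 0.706% of the 32851 RefSeq promoter windows. Another RefSeq window of Arntl, chr7:113207215-113207514, holds them at 1 place. A match of letters is a description and not a measured binding site, and the window is the reference sequence and not that of any line.
Arntl: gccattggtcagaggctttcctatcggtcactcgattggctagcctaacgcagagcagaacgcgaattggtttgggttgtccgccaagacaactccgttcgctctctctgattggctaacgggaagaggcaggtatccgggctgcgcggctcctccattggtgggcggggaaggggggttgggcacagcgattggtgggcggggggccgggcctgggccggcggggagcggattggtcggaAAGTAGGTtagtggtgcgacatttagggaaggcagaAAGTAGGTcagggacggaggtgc

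Few other clock genes were called. Of 13 genes that CLOCK and BMAL1 drive through E-boxes (Per, Cry, Nr1d, Dbp, Tef and others), 1 was called in the joint test, which is 7.69% against 5.98% of all genes. That gene was Nr1d1, encoding REV-ERBα. It ran from 42.6 to 58.9 CPM (median 53.5) in the Bmal1fx, from 55.6 to 68.8 (median 61.0) in the Vhlfx and from 42.9 to 59.1 (median 53.2) in the double-floxed controls. The ranges overlapped in each pair, and its call between the double-floxed and Vhlfx controls (-0.24 ± 0.08, adjusted p = 0.0438) was lost without Vhlfx animal 1, 2, 3, 4 or 5 or double-floxed animal 2, 3, 4 or 5 (adjusted p 0.0512 to 0.134). It was also lost with the robust option off (0.06), with limma (0.057) and with all 32 libraries of the batch fitted (0.063). The same held with the animal number as a block (0.0894) and without scaling between libraries (0.731). The other 12 outputs passed in no pair, with list medians of -0.18, -0.050 and 0.17 for Vhlfx against Bmal1fx, double-floxed against Bmal1fx and double-floxed against Vhlfx. Of the 6 tested clock activators and REV-ERB targets Arntl alone was called (16.7% in the joint test, against 5.98% of all genes). Of 28 tested genes that HIF is known to induce 1 was called in the joint test (Mxi1, 3.57%), and the list medians were 0.0041, 0.028 and -0.043.

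**Figure D1:**
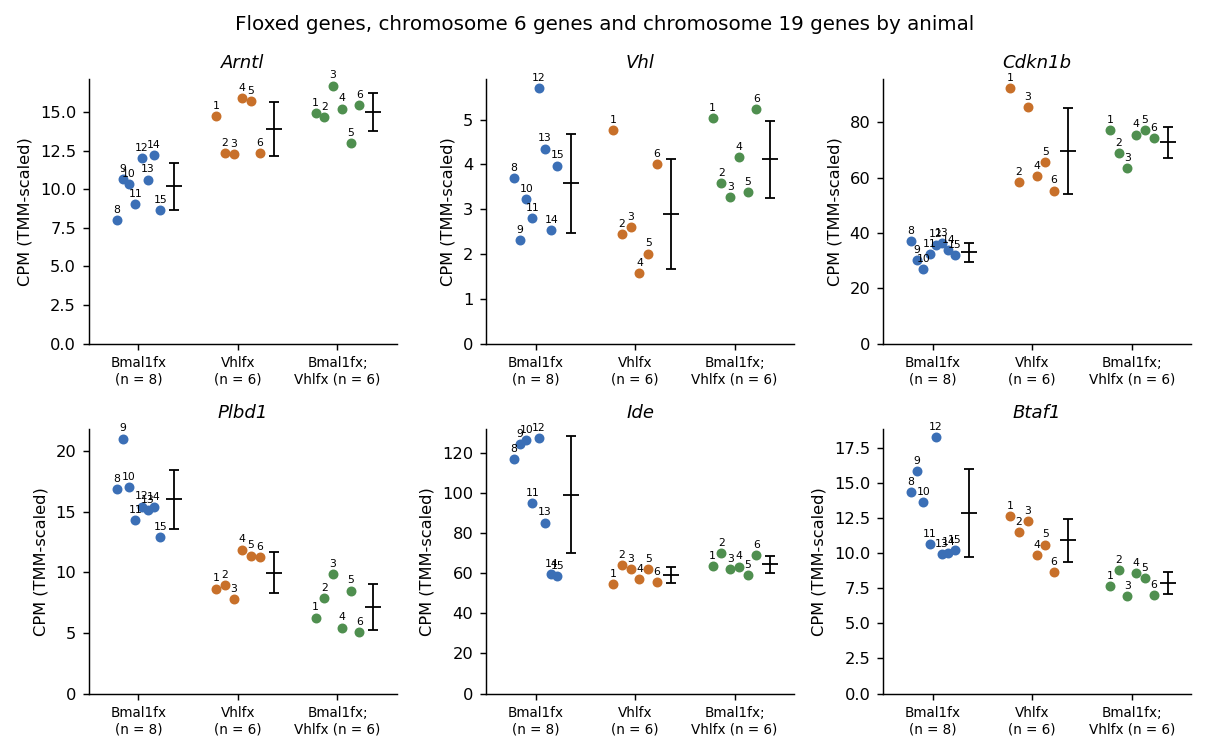
Levels of 6 genes in each of the 20 animals, in CPM (TMM-scaled), with the animal's number over its point. Black bars are the mean and SD of each line. All Bmal1fx points of Arntl and Cdkn1b lie under those of the other lines, and Ide and Btaf1 spread within the Bmal1fx line.

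Against the Bmal1fx line, the highest share of tested genes called lay on chromosome 6, at 130 to 140 Mb, some 20 Mb beyond Vhl. Most of these calls were in the double-floxed line, with 7 genes against 2 in the Vhlfx line. Between the double-floxed and Vhlfx controls 4 genes were called there (15.4%), all lower in the double-floxed animals. Of the 26 genes tested in this 10 Mb bin 7 were called in the joint test (26.9%) and 26.9% between the double-floxed and Bmal1fx controls, the highest share of the 209 bins that held 20 or more tested genes. Between the Vhlfx and Bmal1fx controls its 7.69% was also the highest, against 0.938% of all genes, but that rank rests on 2 genes. The next bin, on chromosome 7 at 70 to 80 Mb, also had 2 called, of 29 (6.9%). The bin was singled out after its values were seen. Its largest rise was in Cdkn1b, which encodes the cell cycle inhibitor p27. Cdkn1b (chr6:134920401-134925513) ran from 27.0 to 37.0 CPM (median 33.1) in the Bmal1fx, from 55.4 to 92.4 (median 63.0) in the Vhlfx and from 63.4 to 77.1 (median 75.0) in the double-floxed controls. No Bmal1fx animal reached the lowest animal of another line, while the lines with floxed Vhl overlapped. The log2 fold change was 1.07 ± 0.10 for Vhlfx (2.10-fold, adjusted p = 2.4e-06) and 1.13 ± 0.10 for double-floxed animals (2.20-fold, adjusted p = 1.28e-06), and 0.07 ± 0.11 between them (adjusted p = 0.79).

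Neighbours of Cdkn1b moved in either direction. Plbd1, which encodes a phospholipase B-like protein, lay at chr6:136612070-136661928 and ran from 12.9 to 21.0 CPM (median 15.4) in the Bmal1fx, from 7.79 to 11.9 (median 10.1) in the Vhlfx and from 5.06 to 9.86 (median 7.06) in the double-floxed controls. It fell by 0.68 ± 0.13 in the Vhlfx (adjusted p = 0.00555) and by 1.15 ± 0.13 in the double-floxed line (adjusted p = 2.1e-06) on the log2 scale, and the Bmal1fx animals did not overlap with either. The double-floxed line was also lower than the Vhlfx line, by -0.47 ± 0.15 (adjusted p = 0.038), with overlap, a call lost without Vhlfx animal 4, 5 or 6 or double-floxed animal 1, 4 or 6 (adjusted p 0.0723 to 0.0922). That call was also lost with only the libraries of the pair (0.055) and with the animal number as a block (0.108). The same held without Vhlfx animals 5 and 6 together (0.197) and without scaling between libraries (0.163). Gpr19, an orphan receptor gene that adjoins Cdkn1b, was low throughout, at 1.34 to 2.30 CPM in the Bmal1fx, 0.339 to 1.77 in the Vhlfx and 0.0835 to 0.576 in the double-floxed controls. The Bmal1fx and double-floxed ranges did not overlap (log2 fold change -2.10 ± 0.33, adjusted p = 0.000276), whereas the Vhlfx line lay between them and was called against neither (adjusted p 0.0764 and 0.109). Gpr19 is below the level set for naming genes and was chosen after its values were seen, as were Smim10l1 and Etv6 below. Hebp1, also below, met the rule for naming genes.

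Smim10l1 and Etv6, in the same bin, were lower in the double-floxed line than in each of the others. Smim10l1 ran from 125 to 153 CPM (median 141) in the Bmal1fx, 122 to 153 (median 136) in the Vhlfx and 100 to 118 (median 111) in the double-floxed controls, whose animals were all below the others. It fell by 0.37 ± 0.06 against Bmal1fx (adjusted p = 0.000276) and by 0.32 ± 0.06 against Vhlfx (adjusted p = 0.00066) on the log2 scale. Without scaling between libraries the call against Vhlfx was lost (-0.12, adjusted p = 0.16). Etv6, which encodes an ETS repressor, had the same order, with 6.21 to 9.14, 6.96 to 7.67 and 4.88 to 5.94 CPM. Its changes were -0.57 ± 0.11 (adjusted p = 0.00247) and -0.42 ± 0.12 (adjusted p = 0.0211). The second call was lost with the animal number as a block (adjusted p = 0.0651), without Vhlfx animals 5 and 6 (0.0506) or without scaling (0.173). Hebp1, a haem-binding protein gene, was higher in the double-floxed controls (5.43 to 6.31 CPM) than in the Bmal1fx controls (2.85 to 4.97) with no overlap (0.66 ± 0.16, adjusted p = 0.0238), and without Bmal1fx animal 8 or double-floxed animal 3 or 6 this call was lost (adjusted p 0.0554 to 0.0558), as it was with limma (0.0534).

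Nearer to Vhl the share of genes called in the joint test was lower than in that bin and above the 5.98% of all genes. Within 10 Mb on either side of Vhl 14 of 95 tested genes were called in the joint test (14.7%). In double-floxed against Bmal1fx 6 were called (6.32%, against 1.67% of all genes). The other pairs lay nearer to the shares of all genes. They had 1 in Vhlfx against Bmal1fx (1.05%, against 0.938%) and 9 in double-floxed against Vhlfx (9.47%, against 7.82%). With windows of 5 and 20 Mb the joint share was 10.5% and 10.7%. Mical3, which encodes an actin-oxidising enzyme and starts 7.3 Mb from Vhl, ran from 18.9 to 22.6 CPM (median 21.0) in the Bmal1fx, 23.4 to 33.9 (median 28.0) in the Vhlfx and 27.2 to 32.2 (median 28.6) in the double-floxed controls. All animals of the lines with floxed Vhl were above all Bmal1fx animals (0.40 ± 0.07, adjusted p = 0.00361, and 0.46 ± 0.07, adjusted p = 0.000326). Cand2, the muscle-enriched cullin regulator 2.2 Mb from Vhl, went from 43.7 to 68.8 CPM (median 56.0) in the Bmal1fx over 42.2 to 52.0 (median 50.1) in the Vhlfx to 38.2 to 45.6 (median 41.7) in the double-floxed controls. Neighbouring ranges overlapped, and only the ends of this order were called (-0.43 ± 0.07, adjusted p = 0.000498). Around Arntl the shares were closer to those of all genes, with 8 of 103 in the joint test (7.77%) and 0.971%, 0.971% and 4.85% in the pairs.

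**Figure D2:**
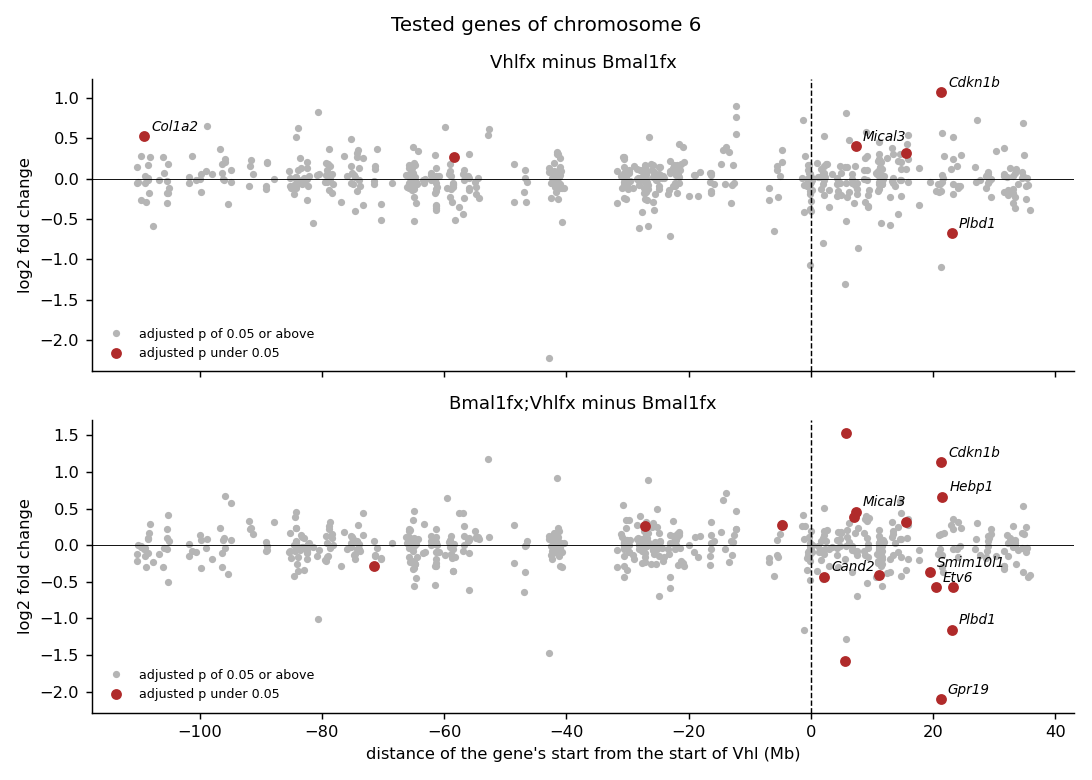
Log2 fold change of each tested gene of chromosome 6 against the distance of its start from the start of Vhl (dashed line), in Mb. The upper panel is Vhlfx minus Bmal1fx, the lower panel Bmal1fx;Vhlfx minus Bmal1fx, and red points have an adjusted p under 0.05. Cdkn1b is up and Plbd1 down in both panels, about 20 Mb to the right of Vhl.

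Some genes varied within the Bmal1fx line in steps that the other lines lacked. Ide, which encodes the insulin-degrading enzyme, lies at chr19:37268743-37337852 in a segment known to vary in copy number between colonies of C57BL/6J mice, together with Fgfbp3. It was at 116.9, 124.2, 126.3 and 127.5 CPM in Bmal1fx animals 8, 9, 10 and 12, at 95.1 in animal 11, at 85.2 in animal 13, and at 59.4 and 58.5 in animals 14 and 15. The Vhlfx animals lay at 54.6 to 64.1 and the double-floxed animals at 59.2 to 69.9, so Bmal1fx animals 14 and 15 lay at the level of the other lines and the other 6 lay above it. The Vhlfx against Bmal1fx difference (-0.75 ± 0.17, adjusted p = 0.0371) was lost without Bmal1fx animal 8, 9, 10, 11 or 12 or any 1 of the 6 Vhlfx animals (adjusted p 0.0523 to 0.0962), with only the libraries of the pair (0.112) and without Vhlfx animals 5 and 6 together (0.095). The double-floxed difference missed the threshold (-0.62 ± 0.16, adjusted p = 0.0652). Strain background is not given and copy number was not measured.

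The neighbours of Ide followed in part. Fgfbp3, a carrier of fibroblast growth factors, reached 1.02 to 2.85 CPM in the Bmal1fx, 0.67 to 1.30 in the Vhlfx and 0.409 to 1.42 in the double-floxed controls, and was called in the joint test (adjusted p = 0.0285) but in no pair. That joint call was lost without Bmal1fx animal 8, 10 or 12 or double-floxed animal 2 or 5 (adjusted p 0.0506 to 0.0966). Btaf1, which encodes an ATPase that takes TBP off DNA, was at 13.6 to 18.3 CPM in the 4 Bmal1fx animals with the highest Ide (8, 9, 10 and 12) and at 9.91 to 10.6 in the other 4. It was at 8.64 to 12.7 in the Vhlfx and at 6.91 to 8.77 in the double-floxed controls, which lay below every Bmal1fx animal (-0.71 ± 0.13, adjusted p = 0.00153). Cpeb3 and Tnks2, which lie close by, had ranges that overlapped among all 3 lines (joint adjusted p = 0.207 and 0.611). Cpeb3 and Tnks2 were chosen after their values were seen, while Btaf1 and Fgfbp3 also met the rule for naming genes. Of the other genes listed as marking substrains of C57BL/6, Nnt and Wdfy1 were not called, and Cyfip2, which varies between C57BL/6J and C57BL/6N mice, was called in 1 pair. Cyfip2 ran from 4.27 to 8.42 CPM in the Bmal1fx, from 2.95 to 5.60 in the Vhlfx and from 5.01 to 9.21 in the double-floxed controls. It was higher in the double-floxed than in the Vhlfx line, with overlap (0.60 ± 0.18, adjusted p = 0.0283), a call lost without Vhlfx animal 2, 3 or 5 or double-floxed animal 4, 5 or 6 (adjusted p 0.055 to 0.079).

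On chromosome 8, D8Ertd738e stood at 79.7, 81.1 and 81.9 CPM in Bmal1fx animals 8, 9 and 10 and at 45.5 to 61.3 in the other 5. It was at 43.3 to 53.6 in the Vhlfx and at 45.8 to 52.8 in the double-floxed controls. Dnase2a, a lysosomal DNase gene under 1 Mb away that was chosen after its values were seen, was likewise highest in those 3 Bmal1fx animals (6.17, 6.84 and 5.43 CPM) and at 3.12 to 4.17 in the other 5. The double-floxed controls, at 1.15 to 3.09, were all lower than the Bmal1fx controls (-1.05 ± 0.20, adjusted p = 0.0024). The Bmal1fx calls of D8Ertd738e (-0.48 ± 0.11, adjusted p = 0.0291, and -0.41 ± 0.10, adjusted p = 0.0449) were lost without Vhlfx animal 1, 2, 3, 4 or 6 (0.0503 to 0.0672) and without Bmal1fx animal 8, 9, 10, 14 or 15 or any double-floxed animal (0.0544 to 0.104). They were lost with only the libraries of the pair (0.0855 and 0.106) and without Vhlfx animals 5 and 6 together (0.0609 and 0.0554).

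The tendon and cartilage markers that were called were lower in the double-floxed than in the Vhlfx controls. Of 8 tested tendon and cartilage markers 5 were called in the joint test, that is 62.5% against 5.98% of all genes, and 6 were lower in the double-floxed than in the Vhlfx controls (median of the list -0.80), where 4.89% of all genes were. Against the Bmal1fx controls 3 were higher in the Vhlfx line (median 0.43) and 2 lower in the double-floxed line (median -0.29). Of all genes 0.787% were higher in the Vhlfx line and 0.804% lower in the double-floxed line. Their summed level was 193 to 243 CPM in the Vhlfx, 146 to 195 in the Bmal1fx and 126 to 137 in the double-floxed controls. These ranges overlapped by little between Vhlfx and Bmal1fx and not at all for the double-floxed line. In whole muscle, fewer cells of a type and less RNA per cell cannot be told apart, and how much tendon each sample held was not measured.

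Fmod, which encodes the collagen-binding proteoglycan fibromodulin, had the smallest p of all genes in the joint test (adjusted p = 3.77e-09). It ran from 24.0 to 33.5 CPM (median 29.2) in the Bmal1fx, from 33.1 to 46.3 (median 40.0) in the Vhlfx and from 17.0 to 22.7 (median 18.6) in the double-floxed controls. The double-floxed animals were all below the rest, and the Bmal1fx and Vhlfx ranges touched. It was 2.09-fold lower in the double-floxed than in the Vhlfx line (log2 fold change -1.07 ± 0.09, adjusted p = 5.41e-10), 1.53-fold lower than in the Bmal1fx line (-0.61 ± 0.09, adjusted p = 9.36e-05), and 1.37-fold higher in the Vhlfx than in the Bmal1fx line (0.45 ± 0.08, adjusted p = 0.00361). Thbs4, a thrombospondin of tendon and muscle junctions, ran from 67.5 to 102 CPM, from 92.0 to 130 and from 54.6 to 63.8 in the same order of lines. Its double-floxed animals too lay below all others (-0.82 ± 0.09 against Vhlfx, adjusted p = 2.22e-07, and -0.49 ± 0.08 against Bmal1fx, adjusted p = 0.000977). Chad, encoding the cartilage protein chondroadherin, ran from 2.73 to 7.68, from 6.21 to 12.0 and from 2.93 to 4.84 CPM, and Prg4, encoding lubricin, from 6.76 to 15.0, from 10.6 to 17.5 and from 6.65 to 10.4. Both were lower in the double-floxed than in the Vhlfx line without overlap (-1.21 ± 0.19, adjusted p = 0.000136, and -0.88 ± 0.15, adjusted p = 0.000355).

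The higher Thbs4 and Chad of the Vhlfx line against Bmal1fx (0.34 ± 0.08, adjusted p = 0.0313, and 0.74 ± 0.18, adjusted p = 0.0312) were less firm. The Thbs4 call was lost without Bmal1fx animal 11, 12, 13 or 15 or Vhlfx animal 2, 4 or 6 (adjusted p 0.0505 to 0.0797). The Chad call was lost without Bmal1fx animal 8, 10, 11 or 15 or Vhlfx animal 2, 4 or 6 (0.0533 to 0.108). Each was also lost when only the libraries of the pair were fitted (0.0844 and 0.0807) and without Vhlfx animals 5 and 6 together (0.0953 and 0.0819).

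Of 27 tested extracellular matrix genes 7 were called in the joint test (Col1a1, Col1a2, Col6a1, Col6a2, Dcn, Eln and Mmp2), which is 25.9% against 5.98% of all genes. In the Vhlfx line 5 were higher than in the Bmal1fx controls and 22 did not pass, where 0.787% of all genes were higher. In the double-floxed line 5 were lower than in the Vhlfx controls, where 4.89% of all genes were lower. Against the Bmal1fx controls 1 was higher in the double-floxed line and 0 lower (list median 0.022), where 0.862% of all genes were higher and 0.804% lower. The list medians of the first and second of these pairs were 0.21 and -0.16, and without scaling between libraries, which moved the median of all genes to -0.15 and 0.199, they were 0.055 and 0.026. Col1a2, a chain of type I collagen chosen after its values were seen, ran from 138 to 172 CPM (median 158) in the Bmal1fx, from 147 to 311 (median 210) in the Vhlfx and from 132 to 163 (median 148) in the double-floxed controls. The ranges overlapped, the Vhlfx animals being the most spread (0.52 ± 0.11, adjusted p = 0.0278, against Bmal1fx). Without Bmal1fx animal 11 or 13 or Vhlfx animal 1, 2, 3 or 4 that call was lost (adjusted p 0.0529 to 0.0831), as with only the libraries of the pair (0.0946). Mmp2, the gelatinase, rose by 0.37 ± 0.09 in the Vhlfx line (adjusted p = 0.0186), a call that ended without Vhlfx animal 6 (adjusted p = 0.0959) or without animals 5 and 6 together (0.105), animal 6 being its highest library at 25.4 CPM against 17.5 to 19.9 in the other 5. Eln, the elastin gene, was higher in the Vhlfx line (0.51 ± 0.10, adjusted p = 0.00512) and at 8.46 to 13.5, 13.0 to 16.8 and 11.7 to 14.9 CPM in the Bmal1fx, Vhlfx and double-floxed controls. It was also the gene called higher in the double-floxed than in the Bmal1fx line (0.36 ± 0.10, adjusted p = 0.0406). That call was lost without Bmal1fx animal 8, 9, 10, 11, 13 or 15, Vhlfx animal 1, 2 or 3 or double-floxed animal 2, 3, 4, 5 or 6 (adjusted p 0.052 to 0.104), with all 32 libraries fitted (0.0982), with only the libraries of the pair (0.0555) and with limma (0.0536). Dcn, encoding decorin, was lower in the double-floxed than in the Vhlfx line (-0.44 ± 0.08, adjusted p = 0.00123), with overlap. Without scaling between libraries the Dcn call was lost (adjusted p = 0.0685).

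**Figure D3:**
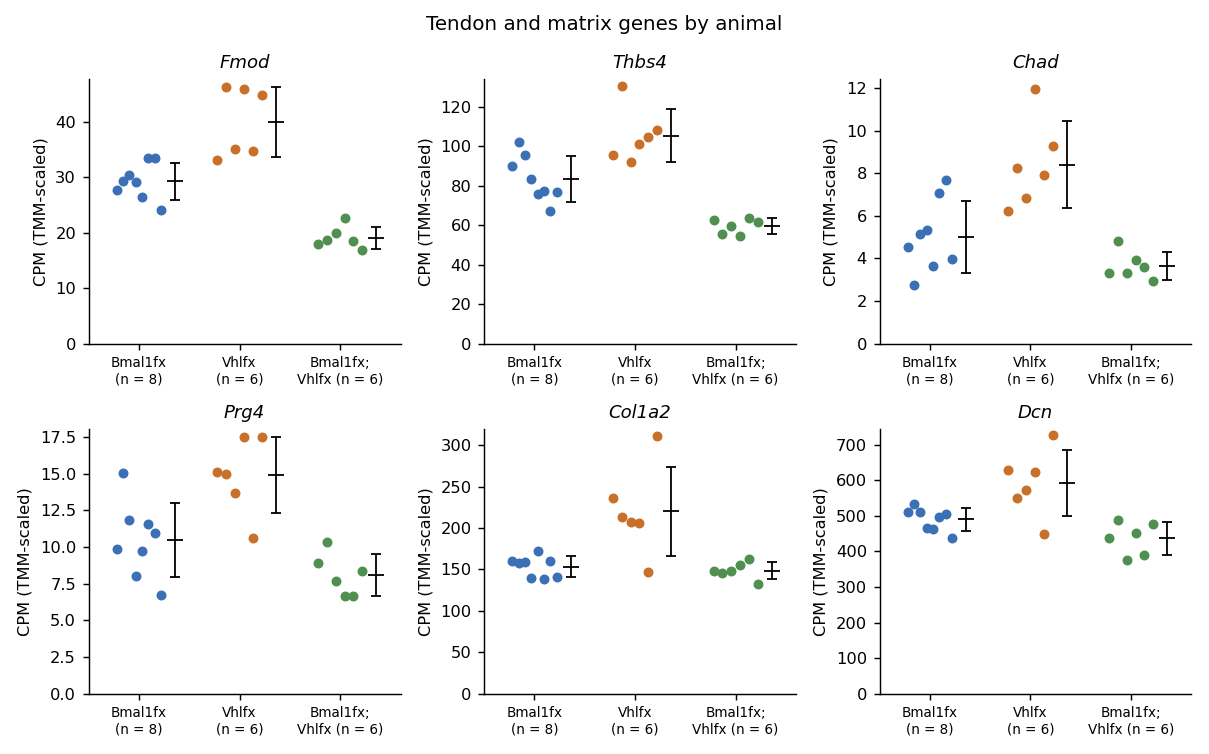
Levels of 6 tendon and matrix genes in each of the 20 animals, in CPM (TMM-scaled). Black bars are the mean and SD of each line. All double-floxed points of Fmod and Thbs4 lie under every point of the other lines, while Col1a2 and Dcn overlap.

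Mitochondrial transcripts took a different share of the counts in each line. The 37 symbols of the mitochondrial genome held 31.3% ± 1.31 of counts in the Bmal1fx (SD, n = 8), 37.1% ± 2.30 in the Vhlfx (n = 6) and 27.4% ± 2.66 in the double-floxed controls (n = 6). The Vhlfx animals 1 to 4 stood at 38.4 to 38.8% and animals 5 and 6 at 34.02 and 34.4%, all above the 29.9 to 34.00% of the Bmal1fx animals, animal 5 by the narrowest margin. The double-floxed animals stood at 22.3 to 29.4%, all below. By exact two-sided permutation tests the differences were 5.88 percentage points between Vhlfx and Bmal1fx (p = 0.000333, adjusted over the 3 pairs 5e-04), -3.88 between double-floxed and Bmal1fx (p = 0.000333, adjusted 5e-04) and -9.76 between double-floxed and Vhlfx (p = 0.00216, adjusted 0.00216). Each p is the smallest that its arrangements allow. With the 13 protein-coding symbols alone the differences were 5.09, -4.65 and -9.74 points.

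By gene the order was the same for most of them. Of 8 protein-coding mitochondrial transcripts that passed the filter, 6 were called in the joint test, which is 75% against 5.98% of all genes. Between the Vhlfx and Bmal1fx controls 1 of the 8, mt-Nd5, was called higher, and 7 did not pass, mt-Nd4 among them. Of all genes 0.787% were higher in that pair. That mt-Nd5 call was lost on leaving out any 1 of 10 libraries (adjusted p 0.0557 to 0.0904). It was also lost with all 32 libraries fitted (0.0841). mt-Nd4, a subunit gene of complex I, ran from 40363 to 77067 CPM (median 55784) in the Bmal1fx, from 79049 to 106242 (median 93013) in the Vhlfx and from 26548 to 47237 (median 32025) in the double-floxed controls. All Vhlfx animals were above all others, and the other lines overlapped. The double-floxed line was 2.63-fold lower than the Vhlfx line (-1.39 ± 0.17, adjusted p = 7.13e-05). mt-Nd1, of the same complex, ran from 27114 to 34557, from 30803 to 38006 and from 23286 to 25932, with the double-floxed animals below all others (-0.53 ± 0.06 against Vhlfx, adjusted p = 4.28e-07, and -0.32 ± 0.06 against Bmal1fx, adjusted p = 0.0024). mt-Cytb of complex III (-0.73 ± 0.09, adjusted p = 2.21e-05) and mt-Nd5 (-0.84 ± 0.11, adjusted p = 0.000108) were also lower in every double-floxed than in every Vhlfx animal. The mt-Nd1 call against Bmal1fx was lost with limma on the normalized counts (adjusted p = 0.0836).

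mt-Nd6 went the other way. It is the protein-coding gene on the opposite strand of the mitochondrial genome, and it ran from 13.2 to 25.1 CPM in the Bmal1fx (median 15.1), from 12.2 to 18.0 in the Vhlfx (median 15.5) and from 23.1 to 30.8 in the double-floxed controls (median 25.6). The double-floxed animals were all above the Vhlfx animals (0.77 ± 0.16, adjusted p = 0.00374). Bmal1fx animals 11 and 13, at 25.1 and 23.8, reached the double-floxed range. The sources used here do not say whether reads were counted by strand, so mt-Nd6 reads and reads antisense to its neighbours cannot be told apart.

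**Figure D4:**
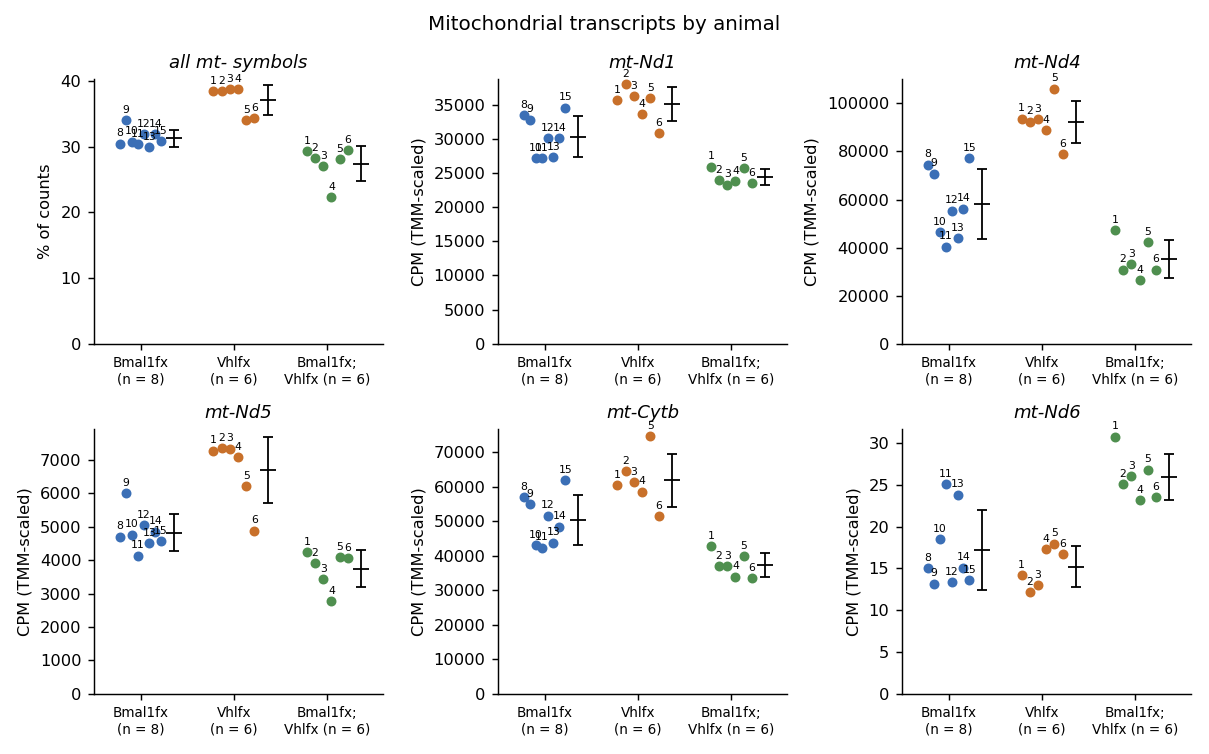
Share of all counts held by mitochondrial symbols (first panel, in %) and levels of 5 mitochondrial transcripts (CPM, TMM-scaled) in each of the 20 animals, with the animal's number over its point. Black bars are the mean and SD of each line. The Vhlfx points lie highest for the share and for mt-Nd4. The double-floxed points lie lowest for the share and overlap with the Bmal1fx points for mt-Nd4. For mt-Nd6 the double-floxed points lie over the Vhlfx points.

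The order with the Vhlfx mean highest and the double-floxed mean lowest held for 10 of the 12 named genes with the smallest p in the joint test. Among them were Pet100, a chaperone of complex IV assembly, and Coq5, of coenzyme Q synthesis. Pet100 ran from 28.7 to 39.9 CPM (median 33.1) in the Bmal1fx, from 41.8 to 54.0 (median 49.2) in the Vhlfx and from 25.3 to 31.3 (median 27.9) in the double-floxed controls. Coq5 ran from 55.1 to 79.9, from 80.4 to 104 and from 49.97 to 64.1. For both, every Vhlfx animal lay above every other animal (Pet100 0.49 ± 0.07 against Bmal1fx, adjusted p = 0.000181, and Coq5 0.46 ± 0.07, adjusted p = 0.000727). The Vhlfx line was also highest without overlap in Cox15, of haem A synthesis (0.83 ± 0.15, adjusted p = 0.00563). The nuclear genes of the respiratory chain as a list did not follow. Of 51 tested, 3 were called in the joint test (Atp5g1, Cox5b and Ndufv2), which is 5.88% against 5.98% of all genes, and the list medians lay between -0.010 and 0.011 in the 3 pairs.

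Other genes with this order belong to signalling and ion transport. Bmp4, a secreted growth factor, ran from 3.62 to 9.31 CPM (median 6.41) in the Bmal1fx, from 11.1 to 18.2 (median 14.1) in the Vhlfx and from 2.97 to 4.48 (median 3.61) in the double-floxed controls. Every Vhlfx animal was above all others (1.15 ± 0.16 against Bmal1fx, 2.22-fold, adjusted p = 0.000205, and -1.91 ± 0.18 in double-floxed against Vhlfx, adjusted p = 1.78e-07). Slc8a3, the sodium-calcium exchanger of skeletal muscle, ran from 23.4 to 34.7, from 37.0 to 57.5 and from 21.2 to 27.1 (0.69 ± 0.09, adjusted p = 3.9e-05, against Bmal1fx). Sema6a, a guidance molecule, ran from 4.91 to 9.04, from 12.3 to 17.1 and from 4.61 to 6.60 (1.08 ± 0.13, adjusted p = 2.3e-06). Pura, encoding a nucleic acid binding protein, ran from 66.5 to 94.3, from 128 to 162 and from 45.6 to 74.1 (0.74 ± 0.09, adjusted p = 0.000181). Within the Bmal1fx line animals 8, 9 and 15 were the highest of 8 in Bmp4 (8.17, 9.31 and 8.05 CPM), in Pura (94.2, 93.0 and 94.3) and in mt-Nd4 (74530, 70770 and 77070). These 3 animals stood nearest to the Vhlfx line in each of the 3 genes, but not in other measures. On the first principal component animal 14 (-7.03) lay nearer to the Vhlfx side than animals 8 (-3.06) and 15 (-4.12). The share of all mitochondrial symbols was 30.5 and 30.8% in animals 8 and 15, below the 31.9% of animals 12 and 14. The mitochondrial ribosomal RNA symbols held 8.31 and 8.05% of counts in animals 8 and 15 and 10.6 to 13.2% in the other 6, and the part of this difference in the pattern was not tested.

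The few insulin signalling genes that were called were higher in the double-floxed line. Of 22 tested genes of insulin signalling and glucose uptake, 4 were called in the joint test (18.2%, against 5.98% of all genes), 4 were higher in double-floxed than in Vhlfx controls (list median 0.096) and 3 higher than in Bmal1fx controls (list median 0.080), with 0 lower. The other 18 and 19 did not pass, and of all genes 2.93% and 0.862% were higher in these pairs. Pdpk1, the kinase that activates AKT, ran from 46.3 to 52.5 CPM (median 49.1) in the Bmal1fx, from 40.5 to 49.1 (median 42.4) in the Vhlfx and from 51.4 to 64.0 (median 55.9) in the double-floxed controls. Its double-floxed animals were all above the Vhlfx animals (0.40 ± 0.06, adjusted p = 4.01e-05). Tbc1d4, which encodes AS160, the AKT substrate that gates GLUT4 traffic, ran from 26.8 to 33.4, from 24.7 to 31.1 and from 34.5 to 44.3. All double-floxed animals were above those of the other lines (0.45 ± 0.08, adjusted p = 0.000126, against Vhlfx, and 0.30 ± 0.07, adjusted p = 0.0197, against Bmal1fx, the latter lost without double-floxed animal 2, adjusted p = 0.0853, and with all 32 libraries of the batch fitted, 0.0656). The kinase gene Akt2 (0.30 ± 0.07, adjusted p = 0.00569) and Irs1, the insulin receptor substrate (0.41 ± 0.09, adjusted p = 0.00577), were higher in double-floxed than in Vhlfx controls, Irs1 with overlap. Against Bmal1fx, Pdpk1 (0.23 ± 0.06, adjusted p = 0.0339) and Akt2 (0.27 ± 0.07, adjusted p = 0.0279) were lost without Bmal1fx animal 9, 12 or 15 or double-floxed animal 6. Pdpk1 was also lost without Bmal1fx animal 8 or double-floxed animal 2 or 3, and Akt2 without Bmal1fx animal 10 or double-floxed animal 1 (adjusted p 0.0504 to 0.121 in all). Both were lost with limma (0.0541 and 0.0526), and Pdpk1 with no filter on low counts (0.0536).

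Called glycogen and glycolysis genes went in both directions. Of 16 tested glycogen genes 3 were called in the joint test (18.8%) and of 21 glycolysis genes 2 (9.52%), against 5.98% of all genes. In double-floxed against Vhlfx controls 2 glycogen genes were higher and 2 lower, and 1 glycolysis gene was higher and 2 were lower. Of all genes 2.93% were higher and 4.89% lower in that pair. Against Bmal1fx controls 1 glycogen gene was higher and 1 lower, and 1 glycolysis gene was lower, where 0.862% of all genes were higher and 0.804% lower. Pygm, the muscle glycogen phosphorylase, ran from 3092 to 3949 CPM (median 3677) in the Bmal1fx, from 3658 to 4694 (median 4214) in the Vhlfx and from 2247 to 3489 (median 3212) in the double-floxed controls, whose animals were all below the Vhlfx animals (-0.47 ± 0.08, adjusted p = 0.000449). Phkg1, the catalytic subunit of the kinase that activates it, was also lower, at 89.9 to 113 against 109 to 144 in the Bmal1fx (-0.34 ± 0.07, adjusted p = 0.00735) and 113 to 150 in the Vhlfx controls (-0.39 ± 0.07, adjusted p = 0.000644). Gsk3b, the kinase that inhibits glycogen synthase, was higher in the double-floxed line (0.29 ± 0.06 against Bmal1fx, adjusted p = 0.0111, and 0.25 ± 0.07 against Vhlfx, adjusted p = 0.0141). The first of these calls was lost without double-floxed animal 6 (adjusted p = 0.0576), the second with the animal number as a block (0.109) and without Vhlfx animals 5 and 6 (0.139). Phka1, a regulatory subunit of phosphorylase kinase chosen after its values were seen, was higher in double-floxed (325 to 397 CPM) than in Vhlfx controls (304 to 348), with overlap (0.18 ± 0.06, adjusted p = 0.0352). That call was lost without Vhlfx animal 1, 3, 4 or 6 or double-floxed animal 1, 2, 3 or 4 (adjusted p 0.0507 to 0.0797), with all 32 libraries of the batch fitted (0.16) and with the animal number as a block (0.0833). Of the glycolysis genes Pgk1, the phosphoglycerate kinase, was higher in double-floxed (13.0 to 25.0 CPM) than in Vhlfx controls (7.23 to 18.0), with overlap (0.85 ± 0.25, adjusted p = 0.0434). It was lost without Bmal1fx animal 8, 10, 11 or 12, Vhlfx animal 1, 2, 3 or 4 or double-floxed animal 1, 3, 4 or 5 (adjusted p 0.0511 to 0.0941). It was also lost with no filter on low counts (0.0544), with all 32 libraries fitted (0.0531), with only the libraries of the pair (0.0509) and with the block (0.14). Ldha, encoding lactate dehydrogenase A, was lower in every double-floxed than in every Vhlfx animal (-0.26 ± 0.05, adjusted p = 0.00118), and Eno3, the muscle enolase, likewise (-0.23 ± 0.06, adjusted p = 0.00762). Neither the Ldha nor the Eno3 call held without scaling between libraries (adjusted p = 0.5 and 0.77), under which all genes shifted as given above. The Phkg1 call against Vhlfx was lost there too (0.0669). The glycolysis gene called lower than in the Bmal1fx controls was Ldha. That call was lost without scaling (0.204), with the robust option off (0.0644) and with all 32 libraries fitted (0.125). It was also lost with only the libraries of the pair (0.0554) and with limma (0.066).

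Few contractile genes were called, with 1 of 15 fast fibre genes (6.67%) and 1 of 14 slow fibre genes (7.14%) in the joint test, against 5.98% of all genes. Of 17 denervation and regeneration genes 2 were called (11.8%, Ncam1 and Myf6). Of 20 strained sarcomere and heat shock genes 3 were called (15%, Bag3, Hspb6 and Hspd1), and of 20 NRF2 and glutathione genes 4 (20%, Gpx3, Gsr, Gsta4 and Gstm5). Between double-floxed and Vhlfx controls the heat shock list had 2 higher and 1 lower, and the glutathione list 0 higher and 3 lower. Of all genes 2.93% were higher and 4.89% lower in that pair. The fast one was Myl1, an essential light chain of myosin, which ran from 7803 to 9105 CPM (median 8585) in the Bmal1fx, from 9074 to 10739.5 (median 9797) in the Vhlfx and from 7057 to 7761 (median 7390) in the double-floxed controls. The double-floxed animals were below all others (-0.42 ± 0.05 against Vhlfx, adjusted p = 1.57e-06, and -0.22 ± 0.05 against Bmal1fx, adjusted p = 0.0168, the latter lost with limma, adjusted p = 0.0857). Ncam1, a cell adhesion gene that muscle raises on denervation, ran from 5.19 to 7.48, from 7.36 to 15.7 and from 3.29 to 5.45 CPM, and was lower in all double-floxed than in all Vhlfx animals (-1.19 ± 0.16, adjusted p = 2.89e-06). Bag3, a cochaperone of strained muscle, was higher in double-floxed than in Vhlfx controls (0.42 ± 0.08, adjusted p = 0.0014), with overlap. Of the 23 atrophy genes of the glucocorticoid and FOXO programmes 2 were called (8.70%), and of 30 genes of fatty acid uptake and oxidation 3 (10.0%).

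**Figure D5:**
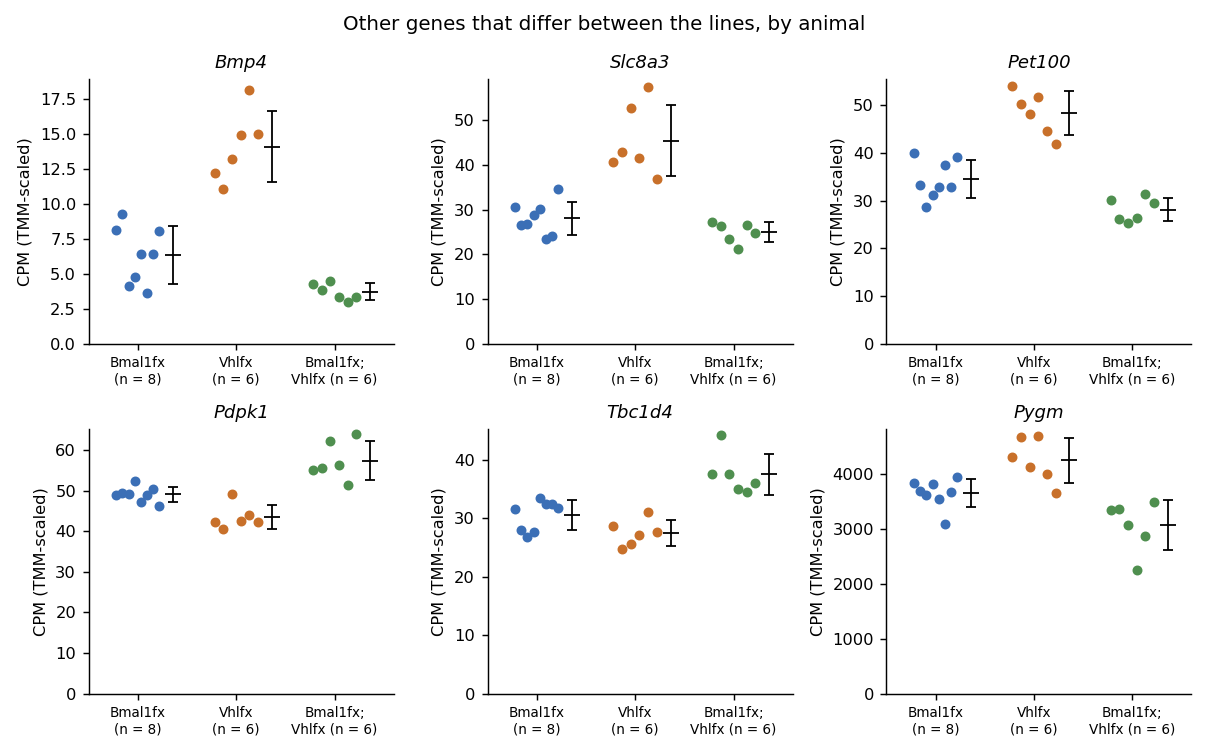
Levels of 6 further genes in each of the 20 animals, in CPM (TMM-scaled). Black bars are the mean and SD of each line. The Vhlfx points of Bmp4, Slc8a3 and Pet100 lie over all others, and the double-floxed points of Tbc1d4 lie over all others.

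Immediate early genes, which respond to handling within minutes, gave 2 joint calls of 23 (8.70%). Klf4, a Krüppel-like factor, was lower in all double-floxed (43.3 to 55.4 CPM) than in all Vhlfx animals (67.8 to 99.1), with the Bmal1fx animals at 53.7 to 82.4 between them (-0.72 ± 0.10, adjusted p = 4.86e-05). Cyr61, a matricellular target of the YAP coactivator, was lowest in the Bmal1fx controls, at 18.9 to 31.6 CPM against 32.6 to 42.3 in the Vhlfx (0.56 ± 0.09, adjusted p = 0.000788) and 29.9 to 42.3 in the double-floxed controls (0.49 ± 0.09, adjusted p = 0.0024, lost with all 32 libraries fitted, 0.0542). The Bmal1fx and Vhlfx ranges did not overlap. Smox, the spermine oxidase gene, was lower in every Vhlfx animal (111 to 140 CPM) than in every Bmal1fx animal (141 to 188), with a log2 fold change of -0.39 ± 0.07 (adjusted p = 0.00404, lost with all 32 libraries fitted, 0.0633). Its double-floxed animals, at 119 to 163, overlapped with both. Ccng2, a cyclin gene that FOXO factors activate, was higher in the double-floxed line, at 8.52 to 11.7 CPM against 5.80 to 7.88 in the Vhlfx controls (0.59 ± 0.12, adjusted p = 0.00118) and 5.04 to 8.93 in the Bmal1fx controls (0.50 ± 0.11, adjusted p = 0.00983). Banp, encoding a DNA-binding nuclear matrix protein, was lower there, at 5.51 to 8.81 CPM against 8.97 to 12.4 in the Vhlfx (-0.67 ± 0.15, adjusted p = 0.00451, lost with all 32 libraries fitted, 0.0916) and 7.65 to 17.6 in the Bmal1fx controls (-0.89 ± 0.14, adjusted p = 0.000498).

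Among markers of other cells, calls lay mostly in the fibroblast and erythroid lists. In the joint test 0 of 13 macrophage and myeloid markers, 0 of 7 satellite cell markers, 0 of 8 Schwann cell markers, 0 of 11 smooth muscle and pericyte markers, 1 of 14 endothelial markers (Aqp1) and 1 of 11 adipocyte markers (Cidea) were called by edgeR, against 5.98% of all genes. Of 11 fibroblast markers 4 were called (36.4%), and their median was 0.25 in Vhlfx against Bmal1fx and -0.34 in double-floxed against Vhlfx. Of 7 tested erythroid markers 3 were called (42.9%), all globin genes (Hbb-bs, Hbb-bt and Hba-a2) with their lowest mean in the Bmal1fx controls. Hbb-bs was at 288 to 610, 462 to 829 and 437 to 632 CPM in the Bmal1fx, Vhlfx and double-floxed controls, with overlap throughout and no pair called (adjusted p 0.0663 to 0.577). These globin genes have near-identical copies between which counting could split reads. Of 2 tested lymphocyte markers 0 were called in the joint test. One of them, Ighm, the immunoglobulin mu chain, ran from 34.8 to 123 CPM (median 75.2) in the Bmal1fx, from 51.4 to 81.7 in the Vhlfx and from 41.2 to 47.0 in the double-floxed controls. It was lower in the double-floxed than in the Bmal1fx line, with overlap (-0.86 ± 0.21, adjusted p = 0.0487). That call was lost without Bmal1fx animal 8, 9, 11, 12, 14 or 15, Vhlfx animal 1, 3, 4, 5 or 6 or any double-floxed animal (adjusted p 0.0527 to 0.11). It was also lost without scaling (0.0578), with only the libraries of the pair (0.0975) and without Vhlfx animals 5 and 6 together (0.06). Of 24 interferon-stimulated genes 2 were called in the joint test, Ifit1 and Isg15 (8.33%, against 5.98% of all genes). Ifit1, an antiviral RNA-binding protein gene, ran from 2.58 to 6.86, from 1.96 to 5.24 and from 1.51 to 2.88 CPM and was lower in the double-floxed than in the Bmal1fx line (-1.001 ± 0.21, adjusted p = 0.00745, lost with all 32 libraries fitted, 0.0633), with overlap.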

How the data were processed

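The 20 control libraries and the gene lists were chosen with earlier results of these data known, and no list serves as independent support. Per the labels' protocols, RNA from whole frozen gastrocnemius was taken up in TRIzol, and 300 ng went into Lexogen QuantSeq 3′ forward libraries. The deposited table of raw counts per gene has 48321 rows, 27 of them with date-like symbols. The submitters' processing notes list FastQC 0.11.4, STAR 2.6.0, HTSeq (no version stated) and edgeR 3.26.8, with mm10 and GRCm38.p4 as builds, and give no role for any of them. A second deposited table holds normalized counts, a signal scaled by the authors, and served only for an alternative.

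Counts were tested in R 4.3.3 with edgeR 4.0.16 (filterByExpr, TMM, robust quasi-likelihood fit of the 3 lines together, Benjamini-Hochberg adjusted p under 0.05 over the 11943 genes tested). Values after ± are standard errors of log2 fold changes, or SD over animals where said. Positions are from GENCODE M21 (GRCm38) by gene name, found for 97.1% of tested genes, and promoters from RefSeq. The test was tried on simulated counts. The alternatives were DESeq2 1.42.0 and limma 3.58.1 (on log2 of the deposited normalized counts plus 0.5), other scalings, filters and sample sets, and leaving out each library. Leaving out Vhlfx animals 5 and 6 is an alternative chosen after seeing the data.

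Animal numbers are shared by the Vhlfx and double-floxed lines. Over all tested genes, the deviations from the line's mean correlated at -0.14 to 0.058 between the 2 animals that shared a number. Of 6 Vhlfx animals 0 correlated best with the double-floxed animal of the same number. No pairing by number was seen, but 6 such correlations cannot exclude one. The labels do not say what the numbers stand for. Genes named are Arntl and Vhl; for each pair, of the called genes, the 8 with the highest and the 8 with the lowest log2 fold change where the mean log2 CPM reached 2 (predicted, Riken, mitochondrial and date-like symbols left out); the 12 smallest p of the joint test; up to 4 genes per list and 6 per window around Arntl and Vhl by joint p. All further genes were picked with their values in view, among them the mitochondrial transcripts past the first 4 of their list. Genes at about 1 CPM and below rest on few counts, which limits their precision.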

Additional observations from a re-analysis of the deposited data

Results flagged for a closer look

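In 183 groups of values checked (61 measures in 3 lines), 12 had 1 animal apart from the rest of its line by Dixon's test on log2 values, where chance alone flags about 1 in 20. Vhlfx animal 6 was apart in 3 genes, with Cand2 at 42.2 CPM (48.5 to 52.0 in the other 5), Dnase2a at 4.08 (2.46 to 2.75) and Mmp2 at 25.4 (17.5 to 19.9). Sema6a was at 17.1 CPM in Vhlfx animal 1 (12.3 to 13.4 in the others) and Pura at 162 in Vhlfx animal 5 (128 to 133). Double-floxed animal 2 was low in Gpr19, at 0.0835 CPM (0.33 to 0.576 in the others), and high in Tbc1d4, at 44.3 (34.5 to 37.6). Double-floxed animal 6 had Ldha at 1025 CPM (1128 to 1192). Double-floxed animal 4 had a mitochondrial transcript share of 22.3% (27.0 to 29.4% in the others). In the Bmal1fx line Smim10l1 was at 125 CPM in animal 12 (up to 153 in the others), Pygm at 3092 in animal 13 (3539 to 3949) and Ccng2 at 5.04 in animal 9 (6.86 to 8.93).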

How the results depend on the processing

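Without scaling between libraries 2858 genes were called in the joint test, 1530 between Vhlfx and Bmal1fx (58 higher, 1472 lower) and 3321 between double-floxed and Vhlfx (3132 higher, 189 lower), and the split between double-floxed and Bmal1fx was 191 higher and 55 lower; the cause was not tested, but these counts moved with the shift of all genes given above. Of 196 calls of named genes 58 were lost without scaling, and 7 between double-floxed and Vhlfx turned sign to values near 0 (Cox5b 0.013, Ndufv2 0.0082, Ndufv1 0.013, Tnnt3 0.012, Rpl14 0.0044, Rpl32 0.015, Ybx3 0.0037). Among those lost were Thbs4 (adjusted p = 0.116), Mmp2 (0.126) and Col1a2 (0.0694) in Vhlfx against Bmal1fx. In double-floxed against Bmal1fx they included Myl1 (0.0571) and D8Ertd738e (0.057). With no filter on low counts 1723 genes were called in the joint test and 301, 473 and 1551 in Vhlfx against Bmal1fx, double-floxed against Bmal1fx and double-floxed against Vhlfx. Of the 1551, 871 were higher and 680 lower in the double-floxed animals, so the larger side changed with the filter. An adjusted p of 0.01 left 328, 31, 49 and 384. DESeq2 gave 926, 158, 293 and 1072 calls, within 1.5 times, and limma 840, 99, 169 and 1167, of the last 560 higher and 607 lower. Without Vhlfx animals 5 and 6, chosen after seeing the data, Vhlfx against Bmal1fx gave 98 higher and 56 lower. With the animal number as a replicate block 605 genes were called between double-floxed and Vhlfx, and 33 of 103 named calls were lost. Leaving out 1 library at a time gave 531 to 829 genes in the joint test, 61 to 143, 81 to 271 and 712 to 967 in the pairs. The mitochondrial share then differed by 5.55 to 6.51, -4.29 to -2.86 and -10.4 to -8.74 points, each with an adjusted p of 0.00216 or less. RLE scaling, leaving out the mitochondrial symbols, an average log2 CPM of at least 1, the fit without the robust option, the fit of all 32 libraries and that of the pair alone kept each count within 1.5 times. The 41 and 37 named calls lost in the last 2 fits, like the 560 of 3902 lost without 1 library, show that many single calls lie near the threshold. Depth limits the sparse genes, such as Gpr19 and Fgfbp3.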

Other observations

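Genes with the largest fitted folds were sparse, and their values were looked at after the fit. Mroh2a, a HEAT-repeat gene on chromosome 1, was at 0 CPM in 5 of 6 Vhlfx animals and at 0.16 in animal 6. It was at 1.32 to 8.25 CPM in the double-floxed and at 0.171 to 1.96 in the Bmal1fx controls, so the Vhlfx animals lay below all others. It was called between the double-floxed and Vhlfx controls (adjusted p = 0.000244). Tdpx-ps1, a pseudogene on the same chromosome, was at 1.26 to 2.85 CPM in 6 Bmal1fx animals and at 0 and 0.0805 in animals 12 and 13. It was at 0 in 5 of 6 Vhlfx and in 4 of 6 double-floxed animals, and at most at 0.412 in any of them. Reads of a pseudogene may be shared with its parent gene, so this level is uncertain. Fitted folds are not given for these 2 genes because they depend on the prior count.

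Ifit3b, an interferon-induced gene, did not follow its neighbour Ifit1. It was higher in the Vhlfx (3.95 to 9.04 CPM) and the double-floxed (3.68 to 8.41) than in the Bmal1fx controls (2.30 to 4.08), with adjusted p = 0.0149 and 0.00745, while Ifit1 was lower in the double-floxed controls. Ifit3b has a near-identical copy, Ifit3, between which counting could split reads.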
